A study of Drosophila erecta with 23 samples.

Results

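Gene-less transcription start site clusters (TSCs) that lay upstream of an annotated gene's TSC, on the opposite strand and pointing away from it, were examined through the embryogenesis of *Drosophila erecta*. A TSC is a group of neighbouring start sites that is treated as 1 promoter, and a TSC is gene-less here when the deposited table links it to no annotated gene. Members had to reach 2 RPM (reads, scaled to the same total in each library) at a time point other than 7-8 h, and 1 to 1000 bp had to separate the nearest edges of the gene-less and the gene TSC. This left 873 members among the 6663 gene-less TSCs that reached this level (13.1%), in a series of 22632 TSCs, of which 9303 were gene-less. Level, missing gene link, orientation and distance were thus set by the choice and are described below without a test. The gene TSC nearest to a member is called its partner.

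The measurements came from RAMPAGE, which sequences the 5′ ends of capped RNAs and so gives both the position of start sites and the abundance of the RNAs that begin there. Whole wild-type embryos of the reference genome strain were sampled hour by hour, the first at 0-1 h and the last at 22-23 h after egg laying, so that each of the 23 time points rests on 1 sample without a replicate. No treatment or mutation was involved, the cells of the embryo were not separated, and RNA left by the mother cannot be told apart from RNA made by the embryo. In whole embryos, fewer cells that use a promoter and less RNA per cell cannot be told apart either. Because no time point had a replicate, a change over time was judged against the scatter of the time points around a smooth curve, and no pair of time points was tested.

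Many animal promoters are flanked upstream by start sites that fire in the opposite direction. Such divergent transcription can yield short, unstable upstream antisense RNAs that are quickly removed by the nuclear exosome, stable long non-coding RNAs, or the messenger RNA of a second gene that shares the intergenic region. Flies are known for weak divergent transcription at most of their promoters and for many gene pairs arranged head to head. RAMPAGE reads the capped RNA that is present, so an RNA that is made and quickly degraded gives few reads.

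The libraries held from 142224 reads in TSCs at 7-8 h to 13882184 at 0-1 h, and at least 1043634 at each time point other than 7-8 h. At 7-8 h a single read was worth 7.03 RPM, so this library was left out of levels, correlations and highest hours, which rest on 22 time points. The libraries of 4-5 h and 5-6 h carried raised levels of TSCs that are otherwise high late in embryogenesis. The 10 strongest partners, for example, took 7.87% of reads at 4-5 h, between 3.50% at 3-4 h and 2.34% at 6-7 h. Several counts of highest hours, the median correlation over all members and the highest and lowest correlations named below were therefore repeated without both libraries. Intervals of RPM values are 95% Wilson intervals of the reads and cover counting error only.

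The 873 members faced 816 different gene TSCs of 776 genes, which is 9.00% of the 8625 genes that had a TSC. A single gene TSC lay in reach of 774 members, and 99 members had more than 1, in 13 cases of different genes. In turn, 54 partner TSCs had at least 2 members, with at most 3. The members were split evenly between strands, with 437 on the plus and 436 on the minus strand. Not all of them stood alone beside their partner. A gene TSC on the member's own strand lay within 1000 bp of 179 members, 161 were convergent with another gene TSC, 560 had neither, and 167 had a further TSC in the gap. Without the 179 members close to a same-strand gene TSC, the medians of the level ratio and of the correlation were -3.21 and 0.37 over 694 members, beside -3.33 and 0.36 over all.

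Divergent gene-less TSCs were most numerous close to the partner. The gap had a median of 286 bp (quartiles 85 and 578 bp, range 3 to 999 bp), and 235 members lay within 100 bp, against 100 at 101 to 200 bp and 49 at 901 to 1000 bp. Convergent pairs, in which the gene-less and the gene TSC point at each other, numbered 467 at the same distances, and their counts were 35 within 100 bp and 100 at 101 to 200 bp. No gene-less TSC of any level lay within 100 bp of a gene TSC on the same strand, and the smallest such gap was 137 bp. Peak calling groups neighbouring start sites into TSCs, and whether this sets that limit was not tested. The narrowest gap, 3 bp, belonged to RAMPAGEpeak_001464 (scaffold 4770, 4065753 to 4065776, plus strand), and the widest, 999 bp, to RAMPAGEpeak_005949 (scaffold 4929, 2901797 to 2901830, minus strand). Members were narrower than their partners, with a median width of 33 bp (quartiles 15 and 75) against 87 bp (51 and 131), and 23 bp for the other gene-less TSCs that reached 2 RPM.

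**Figure D1:**
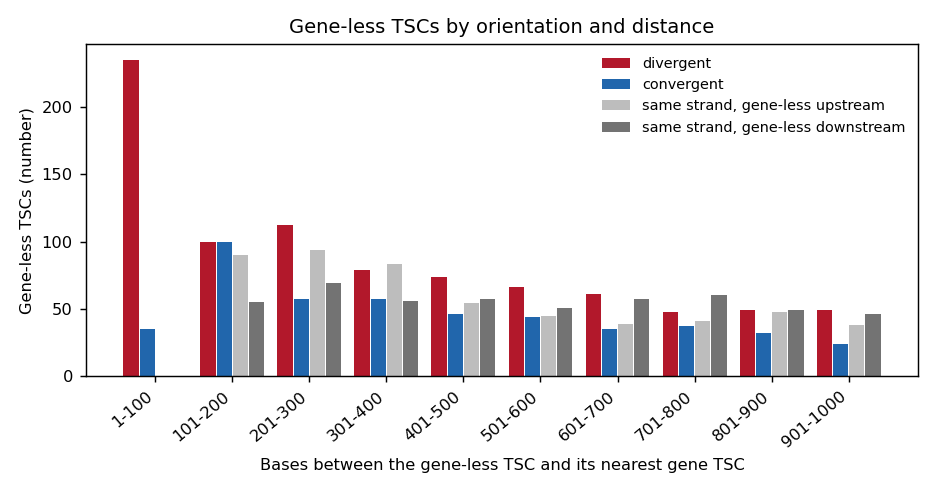
Number of gene-less TSCs that reached 2 RPM (vertical axis) by the number of bases to their nearest gene TSC in bins of 100 bp (horizontal axis), for 4 orientations of the pair. The divergent bars fall from 235 within 100 bp to 49 in the last bin, and the same-strand bars are at 0 in the first bin.

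Most members were weak RNAs beside strong ones. The mean over 22 time points had a median of 1.01 RPM over the members (quartiles 0.534 and 3.28) and of 13.7 RPM over their partners (4.08 and 51.3). The median of the highest value was 5.15 RPM for members and 36.9 RPM for partners. Within pairs, the log2 ratio of the means had a median of -3.33 (quartiles -5.47 and -0.67), and 437 members (50.1%) were more than 10-fold lower than their partner. Still, 169 members (19.4%) exceeded their partner. Pairs within 100 bp had the lowest median ratio, -4.17, against -3.12 at 101 to 300 bp and -3.03 beyond, and their partners were the strongest, with a median of 17.4 RPM against 12.0 and 12.8. Members were close in level to the other gene-less TSCs, whose mean had a median of 1.11 RPM, and 30.7% of members against 32.1% of the others reached 10 RPM. The log2 ratio of the means had a median of -2.86 in same-strand pairs and of -4.09 in convergent pairs. In same-strand pairs, 43.5% of the gene-less TSCs were more than 10-fold lower than the gene TSC, and 21.6% exceeded it. Differences between kinds of pairs were not tested.

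At the lower edge, RAMPAGEpeak_003796 and RAMPAGEpeak_014669 each reached 2.00 RPM and were kept, while RAMPAGEpeak_011627 with 1.95 RPM and RAMPAGEpeak_019624 with 1.93 RPM were left out. In all, 382 divergent gene-less TSCs stayed under the limit, of 1255 at any level. Above it, 268 members reached 10 RPM, 134 reached 25 RPM and 50 reached 100 RPM. The median member had 98 reads in the whole series (quartiles 48 and 320), so the shape of a typical member's profile rests on few reads. The 10 highest members held 48.3% of all 1370415 member reads, and the highest alone held 13.4%.

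The strength of a member bore almost no relation to that of its partner. Across the 873 pairs, the Spearman correlation of the mean levels was 0.08 and the Pearson correlation of their log2 values 0.06, as a description, since members were chosen by their level and some pairs share a partner. The members beside the strongest partners, which were picked out after their values had been seen, serve as examples for levels only. RAMPAGEpeak_008201 (scaffold 4784, 8825430 to 8825441, plus strand) had a mean of 0.513 RPM and lay 51 bp from a gene TSC with a mean of 24676 RPM. RAMPAGEpeak_021007 (scaffold 4845, 18622341 to 18622351, minus strand) had a mean of 2.44 RPM beside a partner of 9761 RPM. Among the 12 pairs with the strongest partners, member means ranged from 0.448 to 8.17 RPM while the partners ranged from 1636 to 24676 RPM. Course over time is a separate matter. The correlation of log2(RPM + 1) over the time points was 0.70 for RAMPAGEpeak_008201 and 0.82 for RAMPAGEpeak_021007. Among the 12 pairs it was lowest, at -0.12, for RAMPAGEpeak_003686 and next lowest, at 0.44, for RAMPAGEpeak_021576.

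**Figure D2:**
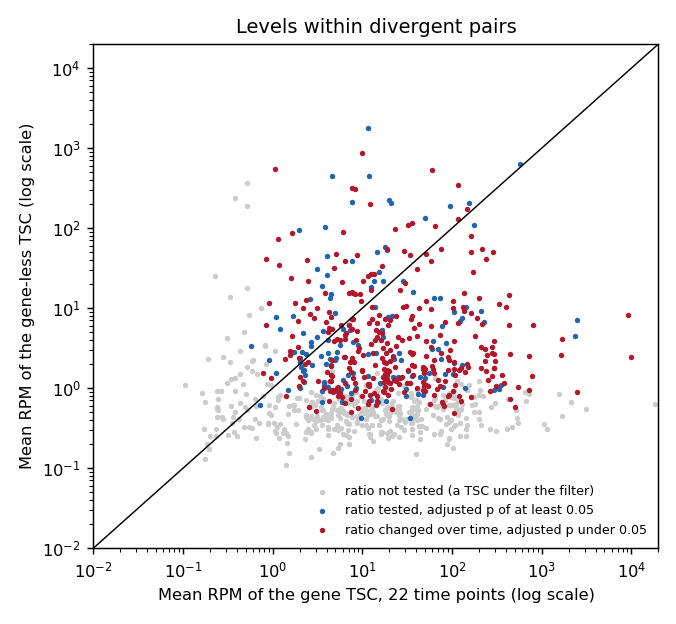
Mean RPM of each member (vertical axis) against that of its partner (horizontal axis), both on log scales, over 22 time points. The line marks equal levels, above which 169 of 873 members lie, and colour tells whether the ratio of the pair was tested over time and changed (329 of the 470 tested).

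Some members reached high levels. Whether these are promoters of genes that the release 1.3 annotation lacks was not tested. The highest was RAMPAGEpeak_001817 (scaffold 4770, 8257994 to 8258200, minus strand), which ranged from 306 RPM at 21-22 h over a median of 1795 RPM to 4325 RPM at 3-4 h (interval 4271 to 4379). Its partner, 558 bp away, ranged from 0 at 19-20 h, which allows up to 1.79 RPM, over a median of 11.9 RPM to 28.8 RPM at 8-9 h. The member was thus above its partner at every time point. It was lower from 17-18 h on, at 657 RPM or less except for 692 RPM at 22-23 h. The next, RAMPAGEpeak_022236 (scaffold 4845, 16775810 to 16776179, minus strand), moved the other way, from 437 RPM at 2-3 h over a median of 915 RPM to 1251 RPM at 16-17 h, beside a partner that was highest at 3-4 h with 18.8 RPM and lowest at 17-18 h with 1.27 RPM.

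RAMPAGEpeak_000310 (scaffold 4770, 6710478 to 6710629, plus strand) was a strong member beside an equally strong partner, 644 bp away. It ranged from 240 to 1049 RPM with a median of 643 RPM, and its partner from 55.9 to 940 RPM with a median of 606 RPM. The partner stood at 60.0 RPM at 11-12 h and 55.9 RPM at 18-19 h, between neighbouring hours of 543 and 685 RPM and of 583 and 135 RPM, while the member was at 745 and 405 RPM in these libraries. This member also lies within 1000 bp of a same-strand gene TSC.

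Among members that reached 25 RPM, those that exceeded their partner most were picked by that ratio, which favours weak partners. The first 4 faced gene TSCs that were nearly silent. The next was RAMPAGEpeak_001817, described above, whose partner had a mean of 11.6 RPM. RAMPAGEpeak_012500 (scaffold 4690, 7400394 to 7400524, plus strand) ranged from 95.3 RPM at 19-20 h over a median of 371 RPM to 656 RPM at 8-9 h. Its partner, 60 bp away, reached 2.20 RPM at 5-6 h and had a median of 0.142 RPM, a log2 ratio of the means of 9.47. RAMPAGEpeak_021458 (scaffold 4845, 13004418 to 13004785, minus strand; log2 ratio 9.26), RAMPAGEpeak_021009 (scaffold 4845, 22161289 to 22161548, minus strand; 8.99) and RAMPAGEpeak_012276 (scaffold 4690, 4491237 to 4491417, plus strand; 8.50) followed, with highest values of 607, 882 and 455 RPM. Their partners reached 4.59, 4.16 and 2.83 RPM. For 3 of these 4 pairs, the partner did not pass the filter on low counts and the ratio was not tested over time.

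The share of all TSC reads that fell in members was 1.44% at 0-1 h and 1.72% at 3-4 h, and it was lowest, 0.679%, at 19-20 h, with 0.881% in the last library. Without the highest member the share went from 1.26% at 0-1 h over 1.45% at 10-11 h to 0.646% at 19-20 h. The partners moved in the opposite direction late, from 7.35% at 0-1 h to 28.6% at 22-23 h. That rise lay in few TSCs, since the 10 strongest partners went from 1.67% to 24.1% and the other partners from 5.68% to 4.45%. As RPM values share a fixed total, the growing share of those 10 TSCs lowers all other values of the late libraries.

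The hour at which a member was highest usually differed from that of its partner. Both were highest in the same hour in 80 pairs (9.16%) and within 1 h of each other in 203 (23.3%). The member came later in 526 pairs (60.3%) and earlier in 267 (30.6%), with a median difference of 2 h (quartiles -1 and 7 h). Leaving out 4-5 h and 5-6 h, where 115 members were highest, gave 22.2% within 1 h. Same-strand pairs were within 1 h in 29.8% of 1032 cases and had a median difference of 0 h, convergent pairs in 27.2% of 467, and divergent pairs of different genes in 23.7% of 1634.

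Members and partners were spread differently over the phases of embryogenesis. Before 3 h, when the RNA in the embryo is mostly maternal, 102 members (11.7%) but 274 partners (33.6%) were highest. From 3 h to before 16 h it was 567 members (64.9%) and 419 partners (51.3%), and from 16 h on 204 members (23.4%) and 123 partners (15.1%). The other gene-less TSCs were spread as 6.22%, 54.1% and 39.7% over these phases. Because a single read weighs more in a shallow library, the hours were taken again with each library thinned to 1043634 reads, for TSCs that still reached 2 RPM in 1 hour above all others. This gave 12.8%, 63.5% and 23.8% of 690 members and 35.8%, 47.9% and 16.2% of 720 partners. Among the 268 members that reached 10 RPM, 20.1% were highest before 3 h, against 37.0% of 646 such partners.

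Late partners often had a late member, and early partners an early member in a smaller share of pairs. Of the 130 pairs whose partner was highest from 16 h on, 83 members (63.8%) were also highest then, where 23.4% of all members were. Of the 297 pairs whose partner was highest before 3 h, 52 members (17.5%) were highest then, where 11.7% of all members were, 187 were highest from 3 h to before 16 h and 58 later. Without 4-5 h and 5-6 h, these shares were 63.2% of 133 and 18.9% of 312, and at equal depth they were 59.8% of 92 and 17.0% of 224. The median correlation within pairs followed this order, at 0.22 for early, 0.37 for intermediate and 0.60 for late partners. These medians include the libraries of 4-5 h and 5-6 h, with their raised late signal. In same-strand pairs, 16.1% of the gene-less TSCs with an early partner were early, where 7.66% of all were, and 65.9% of those with a late partner were late, where 27.5% of all were. In convergent pairs these values were 37.4% beside 17.6% and 70.8% beside 25.1%. The differences between kinds of pairs were not tested.

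**Figure D3:**
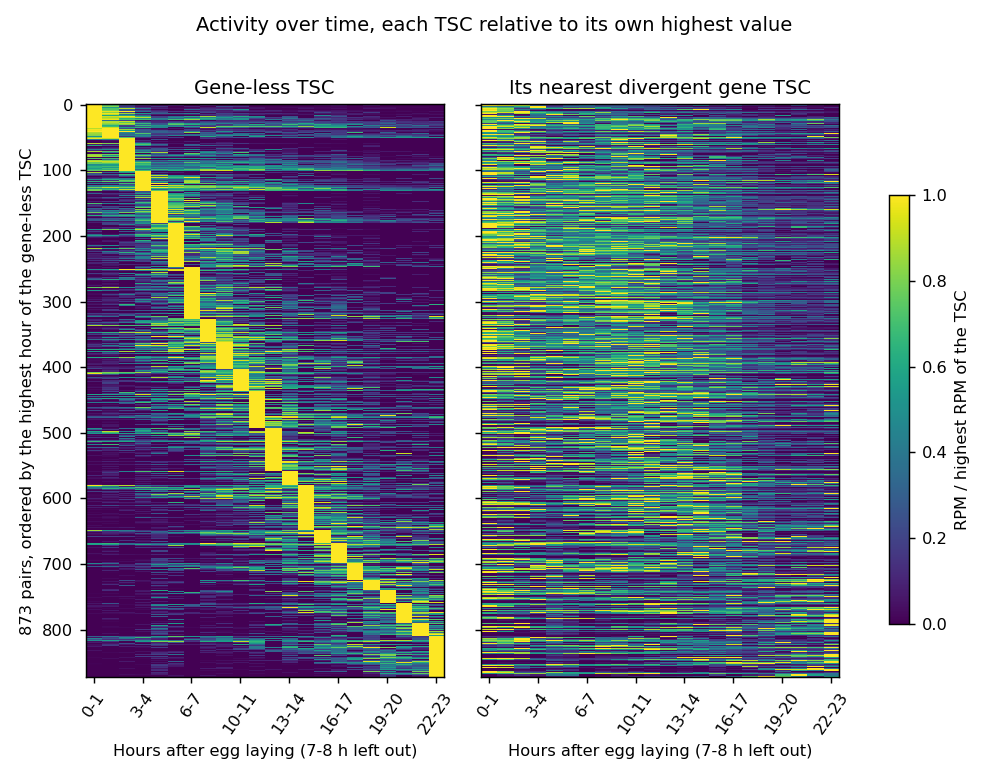
Activity of the 873 members (left) and of their partners in the same rows (right) over 22 time points, as RPM divided by the highest RPM of each TSC (colour scale from 0 to 1), with rows ordered by the member's highest hour. The diagonal of the left panel is only faintly repeated on the right, where high values crowd at 0-1 h in rows of all members.

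Members had narrower profiles than their partners. The Shannon entropy of a profile, which is low when the RNA is confined to few time points, had a median of 3.34 bits for members and 4.03 bits for partners, and the member was the lower one in 704 pairs (80.6%). Low counts lower this measure, so each TSC was also thinned to 50 reads, which gave 3.30 bits for the 645 members and 3.52 bits for the 777 partners that had so many. With all their reads, the same TSCs had medians of 3.56 and 4.05 bits. The other gene-less TSCs were close to the members, with 3.27 bits, or 3.23 bits when thinned.

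Over the whole course, members and partners were weakly correlated. The Pearson correlation of log2(RPM + 1) over the 22 time points had a median of 0.36 (quartiles 0.00 and 0.58), was at least 0.5 in 304 pairs (34.8%), at least 0.8 in 56 (6.41%) and below 0 in 215 (24.6%). The same measure had a median of 0.46 in same-strand pairs, 0.30 in convergent pairs and 0.42 in divergent pairs of different genes. All these pairs come from the same libraries, and the weak TSCs carry more counting error. Where both TSCs reached 10 RPM, the median was 0.39 over 218 divergent gene-less pairs, 0.65 over 185 same-strand, 0.49 over 62 convergent and 0.45 over 1230 pairs of different genes. These differences were not tested.

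Close pairs were not the most alike. The median correlation was 0.35 within 100 bp, 0.45 at 101 to 300 bp and 0.27 at 301 to 1000 bp. Where both reached 10 RPM it was 0.44 (42 pairs), 0.50 (55) and 0.24 (121). Members that exceeded their partner had a median correlation of 0.29, and weaker ones of 0.36. Members that shared a partner could be compared with each other as well. For 60 such pairs, made up of 111 members, the median correlation was 0.56.

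**Figure D4:**
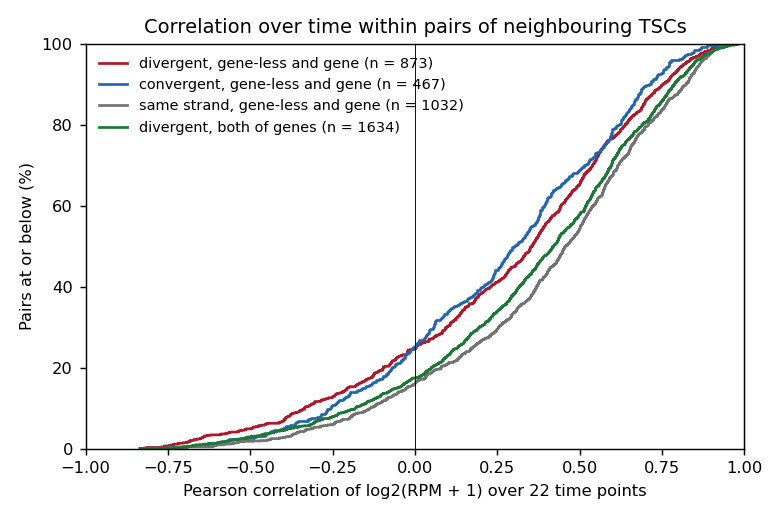
Share of pairs (vertical axis, %) with a Pearson correlation over 22 time points at or below the value on the horizontal axis, for 4 kinds of neighbouring TSCs. The divergent gene-less pairs, with a median of 0.36, run left of the same-strand pairs, with a median of 0.46, and 24.6% of them are below 0.

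Among pairs in which both TSCs reached 25 RPM, the highest correlation belonged to RAMPAGEpeak_011732 (scaffold 4784, 498272 to 498294, minus strand), 492 bp from its partner. The member ranged from 0 at 6-7 h over a median of 15.2 RPM to 724 RPM at 22-23 h, and the partner from 0 at 6-7 h over a median of 25.2 RPM to 1009 RPM at 22-23 h (Pearson 0.98, Spearman 0.97). A value of 0 at 6-7 h allows up to 2.31 RPM. Both TSCs were high from 19-20 h on and at 105 and 115 RPM at 4-5 h, one of the libraries with raised late signal. RAMPAGEpeak_018455 (scaffold 4845, 17889082 to 17889252, plus strand) was high in mid-embryogenesis instead. It went from 7.14 RPM at 2-3 h over a median of 118 RPM to 571 RPM at 12-13 h, and its partner, 101 bp away, from 0.720 RPM at 0-1 h over a median of 13.1 RPM to 57.5 RPM in that same hour (Pearson 0.95, Spearman 0.95).

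RAMPAGEpeak_002647 (scaffold 4770, 3355188 to 3355199, minus strand) and RAMPAGEpeak_003876 (scaffold 4929, 377115 to 377125, plus strand) also rose late with their partners, with correlations of 0.92 and 0.91. The first reached 40.3 RPM at 16-17 h beside 39.7 RPM of its partner at 15-16 h, and the second 83.6 RPM at 20-21 h beside 342 RPM at 22-23 h. RAMPAGEpeak_006269 (scaffold 4929, 3017846 to 3017977, minus strand; correlation 0.91) was low late on both sides, at 0.742 RPM at 22-23 h. Its member was highest at 5-6 h with 69.4 RPM and its partner at 0-1 h with 35.3 RPM. The ratio of 4 of these 5 pairs had no change over time that passed the test described next, and that of RAMPAGEpeak_006269 had an adjusted p of 0.0226 (limma).

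At the other end, the lowest correlation among pairs in which both TSCs reached 25 RPM was that of RAMPAGEpeak_016683 (scaffold 4820, 3168948 to 3169038, plus strand), which lay 5 bp from its partner. It ranged from 5.51 RPM at 20-21 h over a median of 16.2 RPM to 41.0 RPM at 11-12 h, and its partner from 3.31 RPM at 5-6 h over a median of 34.0 RPM to 51.7 RPM at 16-17 h (Pearson -0.57, Spearman -0.64). The partner was at 5.09 RPM at 3-4 h, when the member was at 38.3 RPM. The partner was the higher one up to 2-3 h, the member from 3-4 h to 11-12 h and the partner again from 12-13 h on. Both were present together at 9-10 h, with 29.4 RPM for the member and 28.3 RPM for the partner.

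RAMPAGEpeak_020275 (scaffold 4845, 18013332 to 18013408, plus strand; correlation -0.47, Spearman -0.28) showed single hours that stood out. The member had a median of 1.99 RPM but 113 RPM at 11-12 h, when the partner, 17 bp away, was at 31.9 RPM between hours of 225 and 209 RPM. At 13-14 h the partner was at 15.3 RPM and the member at 14.8 RPM. With 225 RPM at 7-8 h and 35.6 RPM at 22-23 h, the member's high values lay in unconnected libraries, and the scatter of the log2 ratio around its curve was 2.66, against a median of 0.88 over the pairs tested. RAMPAGEpeak_002125 (scaffold 4770, 1869801 to 1869866, minus strand; correlation -0.48, but -0.03 with TMM factors) and RAMPAGEpeak_022495 (scaffold 4845, 12951165 to 12951259, minus strand; -0.39, Spearman -0.18) had fitted log2 ratios that rose from -5.10 to 0.74 and from -4.13 to 1.93 (adjusted p 1.44e-05 and 6.02e-08, limma).

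Whether a member changed over time by itself was tested with limma on log2(RPM + 1) with a spline of 4 degrees of freedom, fitted on all TSCs that passed a filter on low counts (a minimum count of 10) and adjusted over all of them. The filter kept 502 of the 873 members, those with more reads. Of these, 435 changed at an adjusted p under 0.05 (limma), beside a background of 87.4% of all TSCs tested and 90.0% of the gene-less ones, and the 435 are 86.7% of the members tested. The edgeR quasi-likelihood test on recovered reads called 85.7% of members and 78.7% of all TSCs, and DESeq2 87.5% and 81.9%. Among partners, 655 of 740 changed.

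The question of how far a member follows its partner was put to the log2 ratio of both TSCs. The ratio is free of the library's scaling except through the pseudocount, and it was fitted with the same spline over 2512 pairs of neighbouring TSCs, of which 470 were members with their partners. The ratio changed at an adjusted p under 0.05 (limma) in 329 of the 470 pairs (70.0%), where the background was 63.9% of all pairs, 60.6% of same-strand pairs and 63.2% of divergent pairs of different genes. A model of the read shares that also takes low counts called 520 of 793 pairs, 65.6%, beside 65.1% of all pairs. By that model the share was near that of all neighbouring TSCs, and the difference between kinds of pairs was not tested. The fitted log2 ratio spanned 3.58 in the median pair with a change and 2.93 in the median of all 470, and the scatter of time points around it had a median SD of 0.88.

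In 212 of the changed pairs the member was relatively higher at the end of the course than at the start (45.1% of those tested), and in 117 it was relatively lower (24.9%). The background for these directions was 39.3% and 25.8% of all gene-less pairs tested, and same-strand pairs gave 33.9% and 26.7%. The pseudocount of 1 RPM shrinks changes of weak TSCs, so a weak member beside a falling partner can gain in ratio through it. How far it shaped these directions was not tested. They are given for this pseudocount only, and with 0.1 the changed divergent pairs fell from 329 to 248. Where both TSCs reached 25 RPM, 52 of 77 pairs changed (67.5%), with the member relatively higher at the end in 33 and lower in 19. No background of other kinds of pairs at this level is given, so these counts are a description only. In 39 of these 52 the correlation was above 0, so a changing ratio did not require a negative correlation. Among all 873 divergent pairs it was below 0 in 24.6%, a share close to that of these 52.

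The 10 pairs with the smallest adjusted p were taken from those that reached 10 RPM on both sides and spanned at least 2 on the log2 scale, and in all 10 the member gained on its partner. The first was RAMPAGEpeak_005517 (scaffold 4929, 524321 to 524354, minus strand), 791 bp from its partner. It ranged from 0.792 RPM at 0-1 h over a median of 50.5 RPM to 119 RPM at 15-16 h, while the partner ranged from 60.4 RPM at 0-1 h over a median of 30.0 RPM to 2.00 RPM at 20-21 h. The partner was the higher one up to 8-9 h and the member from 9-10 h on, and the fitted log2 ratio went from -4.20 to 3.10 with an SD of 0.72 (adjusted p 1.86e-11, limma).

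In other pairs the member appeared late and stayed below a stronger partner. RAMPAGEpeak_017364 (scaffold 4820, 4604013 to 4604028, minus strand) stayed at or under 0.885 RPM up to 9-10 h and was at 6.68 to 18.0 RPM from 12-13 h on, with a median of 5.42 RPM. Its partner, 861 bp away, ranged from 16.1 RPM at 19-20 h over a median of 37.1 RPM to 76.7 RPM at 12-13 h. The fitted log2 ratio rose from -5.73 to -1.17 (adjusted p 1.28e-09, limma), and the member stayed below its partner at all 22 time points.

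RAMPAGEpeak_005688 (scaffold 4929, 344833 to 344884, minus strand), with a median of 1.42 RPM, was listed at 0 at 0-1 h, which allows up to 0.216 RPM, and reached 17.9 RPM at 19-20 h. Its partner, 576 bp away, fell from 196 RPM at 0-1 h over a median of 62.5 RPM to 21.4 RPM at 18-19 h. The fitted log2 ratio rose from -7.64 to -1.17 (adjusted p 5.11e-09, limma), and the correlation of the pair was -0.83.

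In several pairs the fitted ratio crossed from a higher partner to a higher member. RAMPAGEpeak_003667 (scaffold 4929, 3351421 to 3351430, plus strand) went from 0 at 0-1 h to 15.5 RPM at 16-17 h as its partner went from 30.0 RPM at 1-2 h to 0 at 14-15 h, and the fitted log2 ratio rose from -4.96 to 3.00 (adjusted p 1.13e-09, limma). RAMPAGEpeak_002136 (scaffold 4770, 15722539 to 15722546, minus strand) and RAMPAGEpeak_020165 (scaffold 4845, 18602685 to 18602692, plus strand) behaved alike, with highest values of 13.7 RPM at 16-17 h and 43.7 RPM at 18-19 h beside partners that were highest at 1-2 h with 19.2 RPM and at 5-6 h with 11.6 RPM. In RAMPAGEpeak_021700, RAMPAGEpeak_017751, RAMPAGEpeak_007555 and RAMPAGEpeak_017251 the members were highest between 16-17 h and 19-20 h with 10.8 to 73.5 RPM, and the partners between 2-3 h and 5-6 h with 49.4 to 125 RPM. The fitted log2 ratio ended at -0.79 in RAMPAGEpeak_021700 and at -0.82 in RAMPAGEpeak_007555, below the partner, and at 0.86 in RAMPAGEpeak_017751. In RAMPAGEpeak_017251 it went from -0.02 to 4.14.

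Among the 10 strongest members, the pair with the smallest adjusted p went the opposite way. RAMPAGEpeak_014638 (scaffold 4690, 16863923 to 16864079, minus strand) ranged from 74.6 RPM at 21-22 h over a median of 409 RPM to 548 RPM at 3-4 h, and its partner, 536 bp away, from 51.9 RPM at 0-1 h over a median of 116 RPM to 211 RPM at 11-12 h. The fitted log2 ratio fell from 3.14 to -0.03 (adjusted p 1.21e-07, limma), that is, from a member far above its partner to one level with it. RAMPAGEpeak_006803 (scaffold 4929, 1119441 to 1119563, minus strand), 43 bp from its partner and up to 998 RPM at 5-6 h, had no change of the ratio that passed the test (adjusted p 0.346, limma). Its fitted log2 ratio spanned 1.40 with an SD of 0.95, and the correlation of the pair was 0.90.

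**Figure D5:**
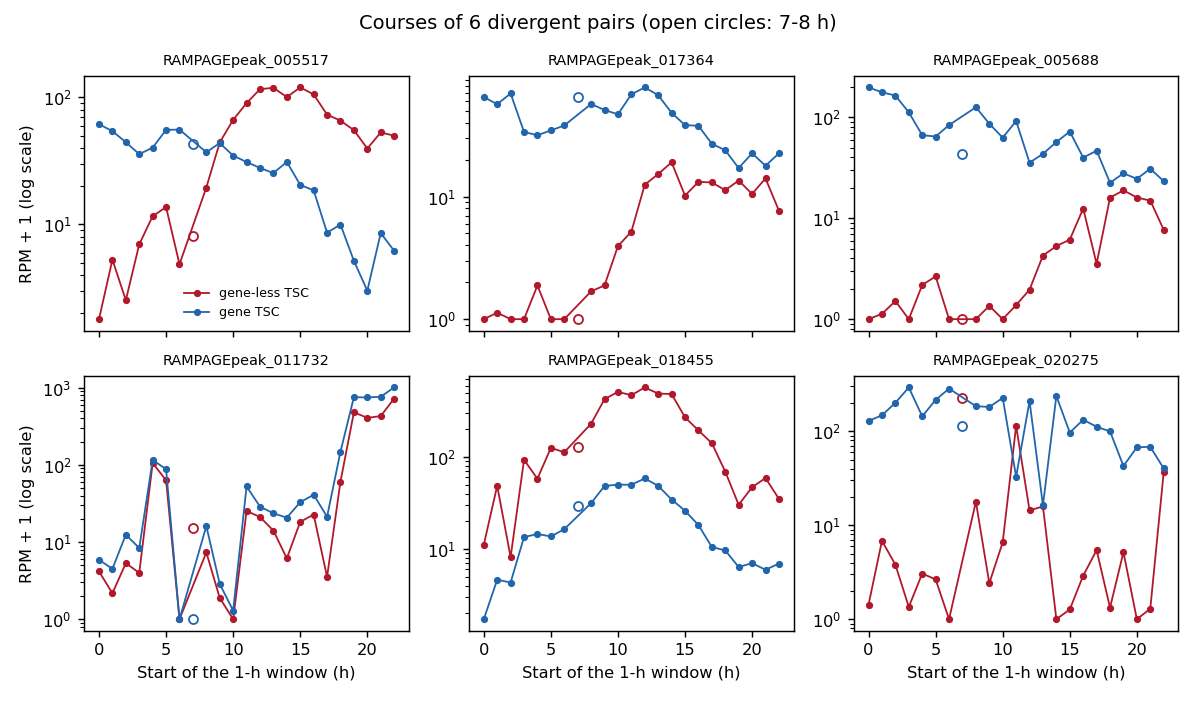
RPM + 1 on a log scale (vertical axis) against the start of the 1-h window (horizontal axis) for 6 members (red) and their partners (blue), with the shallow 7-8 h library as open circles. In RAMPAGEpeak_005517 the curves cross, from 0.792 RPM beside 60.4 RPM at 0-1 h to 119 RPM at 15-16 h. In RAMPAGEpeak_011732 and RAMPAGEpeak_018455 the curves run in parallel.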

How the data were processed

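RAMPAGE read pairs of 23 samples, barcoded and pooled as a single library, were mapped by the authors with STAR (version not given in the sources used here) to the *D. erecta* genome (FlyBase release 1.3). TSCs were called on the pooled reads of the series, so their number says nothing about single hours, and were linked to genes by the paired reads. The deposited TSC values are RPM of all reads in listed TSCs. The deposited positions are given here 1-based, and their score column, whose meaning is not stated, and the gene tables were not used. No sample column was left over (0). All 379172 RPM values above 0 were whole multiples of 1 read within 0.01 (100%), so reads were recovered.

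Members, lists and tests were chosen with earlier results of these data known. Pairs were described by the correlation of log2(RPM + 1). For change over time, limma 3.58.1 (trend) fitted these log2 values, or the log2 ratio of a pair, to a natural spline (4 df) over 23 time points. The count filter of edgeR 4.0.16 was applied first. Fold changes on this scale understate the change of low TSCs. Alternatives on recovered reads used the edgeR quasi-likelihood test and DESeq2 1.42.0. On these reads, edgeR called 11779 and DESeq2 12260 of the 14966 TSCs tested. All adjusted p-values are Benjamini-Hochberg. With 1 sample per time point, p-values measure the scatter around the curve, which mixes technical and biological differences.

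TSCs were named by rule: the 10 highest means, the 10 smallest adjusted p of the ratio (both TSCs at 10 RPM, span of at least 2), the 5 highest and 5 lowest correlations (both at 25 RPM), the 5 highest ratios to the partner, and the edges of the limits. The tables used here pair the partners' identifiers with no gene names, so the gene groups planned among partners were not examined, nor were tissue markers, and no sequence is shown because no genome of release 1.3 was used. R 4.3.3, Python 3.11.15, numpy 2.4.6, pandas 2.3.3, scipy 1.17.1 and matplotlib 3.10.9 were used.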

Additional observations from a re-analysis of the deposited data

How the results depend on the processing

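The number of members depended on its limits, with 268 at a limit of 10 RPM and 335 at a gap of up to 200 bp. At 10 RPM the median log2 ratio to the partner was -0.48 and the median entropy 3.87 bits, as weak members leave the set. The median correlation was 0.27 on plain RPM, 0.31 with all 23 time points, 0.27 with TMM factors and 0.28 after thinning each library to 1043634 reads, the depth of the second smallest library. It remained positive under every alternative run, up to 0.38 at 10 RPM. The pairs whose ratio changed numbered 602 without the filter (69.0% of members, 63.5% of all pairs) and 172 at an adjusted p under 0.001 (36.6% and 31.1%). They numbered 248 with a pseudocount of 0.1 (52.8% and 49.3%) and 520 under the quasi-binomial model. With each time point left out in turn, they ranged from 294 of 464 tested, without 0-1 h, to 346 of 460, without 7-8 h (75.2%, beside 69.9% of all pairs). The members that changed over time ranged from 416 of 499 tested to 452 of 492 in these 2 refits. Without 7-8 h that was 91.9%, beside 91.2% of all TSCs. These members numbered 430 by edgeR and 439 by DESeq2. For these shifts the cause was not tested. More or fewer TSCs entered in some settings, but 470 divergent pairs were tested with a pseudocount of 0.1 and at an adjusted p under 0.001, as in the main fit. Without members near a same-strand gene TSC, chosen after seeing the data like the other settings for phases, 694 members had a median correlation of 0.37 and a median ratio of -3.21. All 10 named pairs with the smallest adjusted p kept direction and call in 50 of 50 refits. These pairs were chosen by that p and refitted on the same reads, so their agreement was largely set by the choice. Of 60 recomputed correlations of the named pairs, 4 left the 95% interval (Fisher transformation) of the main value. That interval takes the 22 time points as independent, which neighbouring hours are not, and the pairs were chosen by their correlation. The 4 were RAMPAGEpeak_002125 with TMM factors (-0.03), RAMPAGEpeak_002647 (0.73) and RAMPAGEpeak_006269 (0.76) on plain RPM and RAMPAGEpeak_011732 with 7-8 h (0.93). Samples could not be paired because each time point had 1 sample, while the ratio fit paired both TSCs within each library. Depth limits the typical member, with its 98 reads, to the broad course.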
